A study of Mus musculus with 4 samples.

Results

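Isolated NF-Y regions are stretches of mouse embryonic stem cell chromatin where at least 1 subunit of the transcription factor NF-Y had a called site. The next region with a called site lay far away on both sides. Called sites from all 3 subunit lists were joined into regions when neighbouring site centres lay within 200 bp. A region of chromosomes 1 to 19 was called isolated when the gap to the region before it and the gap to the region after it both exceeded 500 kb. The members were thus chosen by the measured positions of called sites. This held for 380 of the 5217 regions on these chromosomes (7.28%), out of 5350 regions in all. A further 1342 regions (25.7%) had such a gap on 1 side only.

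NF-Y is a trimer that recognises the CCAAT box, a short promoter element. NF-YA inserts into the minor groove and reads the CCAAT sequence, while NF-YB and NF-YC form a histone-fold dimer that resembles the H2A and H2B pair of the nucleosome and is needed for NF-YA to join. NF-Y is known mainly for binding close to gene starts, including those of cell cycle and metabolic genes, and has also been described at enhancers of embryonic stem cells.

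The cells were E14Tg2a, a mouse embryonic stem cell line of strain 129/Ola with no genetic change or treatment named in the labels, grown with serum and leukaemia inhibitory factor and used at passages 20 to 35. Chromatin was fixed with 1% formaldehyde for 10 min and each precipitation took 2 µg of antibody, a mouse monoclonal for NF-YA and rabbit polyclonals for NF-YB and NF-YC, per the labels. Each subunit had 1 library, and an input DNA library served as the background for calling sites. The NF-YA library kept 11479998 tags and gave 4642 sites. For NF-YB 13859303 tags and 2774 sites were listed, and for NF-YC 11390494 tags and 2675 sites. A tag is a mapped read, and a site needed at least 14 tags (NF-YA and NF-YC) or 15 tags (NF-YB). No library was replicated, all values come from 1 cell line, and site lists hold no expression values with which to check the cell type.

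Isolation was decided by where sites were called. The subunit make-up and tag counts come from the same calls, so they are described without a test, and intervals are exact (Clopper-Pearson) 95% binomial intervals that cover counting error over regions or sites only. Genes and DNA sequence at the regions were not analysed here, so positions are given on mm9 as deposited.

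More than 1 in 2 isolated regions had a site of a single subunit, and about 1 in 4 had all 3. The complete trio, NF-YA with NF-YB and NF-YC, was called at 98 of 380 isolated regions (25.8%, interval 21.5 to 30.5), where 32.4% of all regions on chromosomes 1 to 19 held it. A site of 1 subunit alone made up 203 isolated regions (53.4%, 48.3 to 58.5), against 44.0% of all regions. The isolated regions were thus poorer in complete trios and richer in lone sites than the background, with both background values outside the intervals. For trios the background came inside the interval in 4 of 11 other settings, among them a gap of over 1 Mb and a minimum of 20 tags per site.

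Lone NF-YA, the sequence-reading subunit, was the most frequent class, with 140 isolated regions (36.8%, 32.0 to 41.9) against 31.6% of all regions. Lone NF-YB sites, of the histone-fold partner, numbered 33 (8.68%, 6.05 to 12) against 7.21%. Lone NF-YC sites, of the other histone-fold partner, numbered 30 (7.89%, 5.39 to 11.1) against 5.21%. For lone NF-YA and lone NF-YC the background lay just below the interval, and for lone NF-YB it lay inside. The pairs stood near their background. NF-YA with NF-YB was found at 41 isolated regions (10.8%, background 11.2%) and NF-YA with NF-YC at 36 (9.47%, background 11.3%). The histone-fold pair without an NF-YA site was found at 2 isolated regions (0.526%, 0.0638 to 1.89, background 1.07%).

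Counted by subunit, NF-YA was present at 315 isolated regions (82.9%, 78.7 to 86.5), against 86.5% of all regions. NF-YB was present at 174 (45.8%, 40.7 to 50.9, background 51.8%) and NF-YC at 166 (43.7%, 38.6 to 48.8, background 50.0%). Where both histone-fold subunits were called at an isolated region, NF-YA was called too in 98 of 100 cases (98.0%, 93.0 to 99.8), and the other regions gave 96.7%. The histone-fold pair without an NF-YA site was therefore rare in both sets. No isolated region held more than 1 site of a list, so the 380 regions comprised 655 sites.

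**Figure D1:**
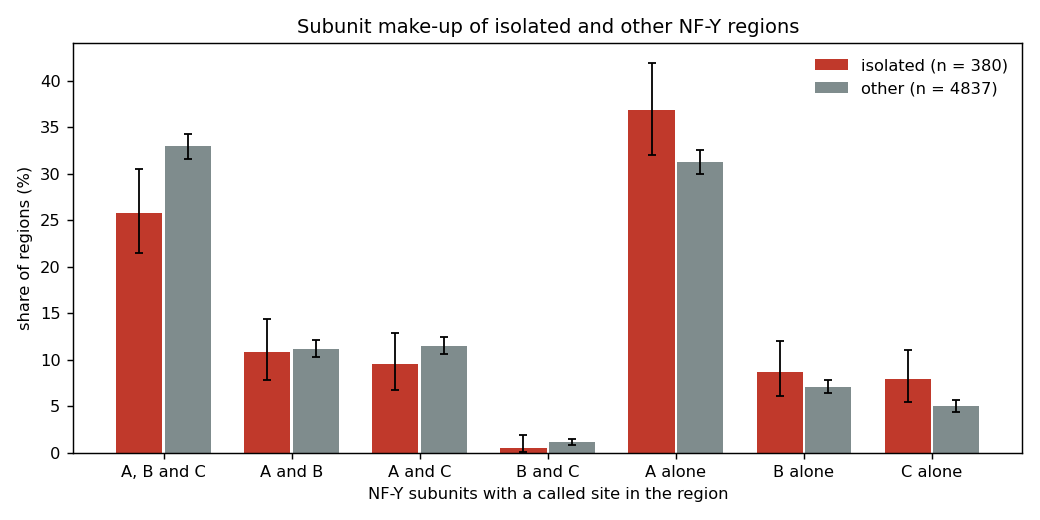
Share of regions (%, vertical axis from 0) in each subunit combination for the 380 isolated regions (red) and the other 4837 regions of chromosomes 1 to 19 (grey), with exact 95% binomial intervals. The red bar is lower for all 3 subunits (25.8%) and higher for NF-YA alone (36.8%).

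The rule itself makes the gaps of isolated regions long, as both had to exceed 500 kb. The smaller of a region's gaps had a median of 878 kb (quartiles 654 and 1375 kb) and the larger a median of 2.12 Mb (1.28 and 3.84 Mb), while the median gap over all neighbouring regions of chromosomes 1 to 19 was 123 kb. Gaps over 500 kb were 1056 of 5198 (20.3%), yet they covered 78.8% of the length between the first and last regions, and 608 of them bordered an isolated region. The longest gap measured 12.8 Mb and bordered an isolated region of all 3 subunits. In 161 isolated regions the smaller gap exceeded 1 Mb, in 45 it exceeded 2 Mb and in 16 it exceeded 3 Mb.

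Just inside the 500 kb limit lay a lone NF-YA site on chr2:146337931-146337991 (39 tags) and a lone NF-YB site on chr2:146839251-146839291 (21 tags), which share the gap of 501.31 kb, and a lone NF-YB site on chr19:36309851-36309891 (22 tags, 501.35 kb). Just outside it lay a trio on chr6:89545611-89545711 (NF-YA 105, NF-YB 33 and NF-YC 68 tags, 499.58 kb), a trio on chr8:26127651-26127771 (34, 18 and 15 tags, 496.33 kb) and a lone NF-YA site on chr15:38944351-38944411 (23 tags, 496.32 kb).

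The make-up did not follow distance in an even line. Among regions with neighbours on both sides, the share of complete trios was 33.7% where the nearer neighbour lay within 10 kb, 33.3% at 10 to 100 kb and 32.1% at 100 to 500 kb. It was 25.1% (55 of 219 regions, 19.5 to 31.4) at 0.5 to 1 Mb and 21.6% (25 of 116, 14.5 to 30.1) at 1 to 2 Mb. Beyond 2 Mb it was 40.0% (18 of 45, 25.7 to 55.7), with an interval that includes the 3 classes within 500 kb and not those from 0.5 to 2 Mb. Lone sites ran the other way, from 42.9% within 10 kb to 60.3% at 1 to 2 Mb (50.8 to 69.3) and 42.2% beyond 2 Mb (27.7 to 57.8). The regions with a long gap on 1 side only held trios in 29.7% of cases, between the isolated regions and those with no long gap (34.3%).

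**Figure D2:**
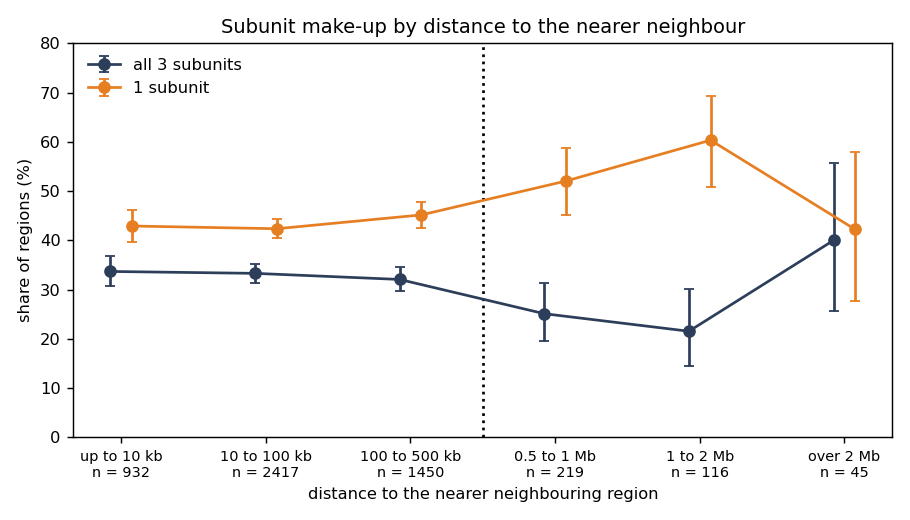
Share of regions (%) with all 3 subunits (dark) and with 1 subunit (orange) by distance to the nearer neighbouring region, with exact 95% binomial intervals. Regions right of the dotted line at 500 kb are the isolated ones. The share of all 3 subunits falls to 21.6% at 1 to 2 Mb and stands at 40.0% in the 45 regions beyond 2 Mb.

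The 10 most isolated regions, ranked by the smaller gap, included 5 complete trios. Trios made up 25.8% of all isolated regions and 32.4% of all regions on chromosomes 1 to 19. Of the 16 isolated regions with a smaller gap over 3 Mb, 6 were trios and 7 were lone sites. The most remote was a lone NF-YB site on chr14:94289891-94289971, with 24 tags, 6.47 Mb from the region before it and 5.16 Mb from the next. It was followed by a lone NF-YA site on chr5:16344971-16345031, with 20 tags and gaps of 7.35 and 4.04 Mb. Both leading sites were weak, with ranks by tag count of 2112 among NF-YB sites and 3527 among NF-YA sites.

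The third was a trio on chr8:18846131-18846231, with 51 tags for NF-YA, 15 in the NF-YB library and 41 in the NF-YC library, and gaps of 3.81 and 4.32 Mb. The fourth, on chr8:67212371-67212451, held 111 NF-YA tags, 48 NF-YB tags and 61 NF-YC tags between gaps of 3.75 and 4.11 Mb. NF-YB was thus at its lowest possible count of 15 in the former, while the latter stood at rank 479 of the NF-YA list. The remaining trios lay on chr4:28740111-28740231 (99, 56 and 29 tags for NF-YA, NF-YB and then NF-YC), on chr3:45182211-45182291 (64, 40 and 37) and on chr12:21423411-21423551 (53, 57 and 48). Scaled to the tags kept per library, NF-YA was the highest subunit in each of these.

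The other 3 were a lone NF-YA site on chr1:145851171-145851491 (16 tags), a lone NF-YC site on chr3:14863351-14863471 (15 tags) and an NF-YA and NF-YC pair on chr6:13628051-13628111 (59 and 29 tags). Complete trios of middling strength and lone sites close to the calling limit were therefore both found amid gaps of more than 3 Mb.

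Tag counts at isolated sites were somewhat below those of the remaining sites. Isolated NF-YA sites ranged from 14 to 282 tags with a median of 31, and the other NF-YA sites of chromosomes 1 to 19 had a median of 35. Isolated NF-YB sites ranged from 15 to 253 tags with a median of 39, against 44. Isolated NF-YC sites ranged from 14 to 115 tags with a median of 29, against 37. The other sites reached 312, 351 and 267 tags in the same order, above the highest isolated site of each list, and the difference in medians was largest for NF-YC. As percentiles of tag count within the list, the isolated NF-YA sites had a median of 44.6 and the others 50.6. For NF-YB the isolated and other medians were 45.0 and 51.5. For NF-YC they were 38.2 and 50.9.

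Very strong NF-YA and NF-YC sites were scarcer among the isolated regions. Isolated sites made up 6.79% of the NF-YA list but 15 of its 470 strongest sites (3.19%, 1.80 to 5.21), those of 113 tags or more. For NF-YC they made up 6.21% of the list and 5 of the 270 strongest sites (1.85%, 0.604 to 4.27). For NF-YB they made up 6.27% of the list and 15 of the 279 strongest (5.38%, 3.04 to 8.71), a share close to that of the list. None of the 100 NF-YC sites of most tags was isolated, a count of 0 that allows a share of up to 3.62% by the exact interval, and the best isolated NF-YC site ranked 106. At the top of the other lists, 2 of 101 NF-YA sites (1.98%, 0.241 to 6.97) and 4 of 101 NF-YB sites (3.96%, 1.09 to 9.83) were isolated. Both of these intervals include the share of the list.

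Within the isolated regions, tag count did not rise or fall steadily with distance. Spearman's rho between tags and the smaller gap was -0.04 for NF-YA over 315 regions, -0.02 for NF-YB over 174 and -0.01 for NF-YC over 166. Each value runs over regions of 1 library, and all are near 0.

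**Figure D3:**
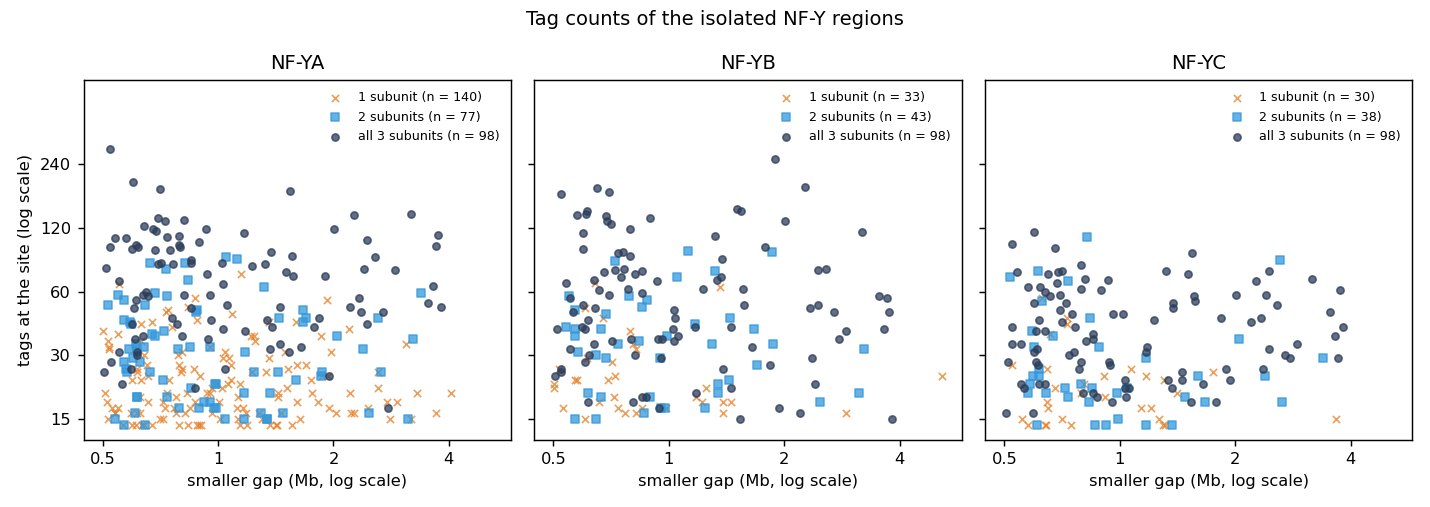
Tags at each isolated site (log scale) against the smaller gap of its region (Mb, log scale), in 1 panel per subunit, with marks for regions of 1, 2 or all 3 subunits. Trios (dark circles) lie above lone sites (orange crosses) at most distances, and no slope with distance is seen.

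The 98 isolated trios had median tag counts a little below those of the other trios. NF-YA tags in isolated trios ranged from 17 to 282 with a median of 69, and in the 1593 other trios the median was 71. NF-YB tags ranged from 15 to 253 with a median of 52, against 59. NF-YC tags ranged from 16 to 115 with a median of 39, against 45. The upper quartiles differed more than the medians: 98.8 NF-YA tags in isolated and 116 in other trios, 83.8 and 96 for NF-YB, and 58 and 71 for NF-YC.

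Scaled to the tags kept per library, NF-YA was the highest subunit in 69 of the 98 isolated trios (70.4%, 60.3 to 79.2) and in 66.6% of the other trios. NF-YB led in 22 (22.4%, others 21.8%) and NF-YC in 7 (7.14%, 2.92 to 14.2, others 11.6%). The median ratio of NF-YB to NF-YA was 0.667 in isolated and 0.692 in other trios, and that of NF-YC to NF-YA was 0.598 and 0.619. The medians of both ratios were a little lower in isolated trios. Levels from different antibodies and libraries do not give the amounts of the proteins.

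The rule keeps the subunit centres of any trio close together, as neighbouring centres were chained only within 200 bp. The median distance between NF-YA and NF-YB centres was 30 bp, between NF-YA and NF-YC 20 bp and between NF-YB and NF-YC 20 bp, against 20, 20 and 30 bp in the other trios. Between 81.6% and 87.8% of the isolated trios had the centres of a pair within 50 bp, depending on the pair. These distances are near the caller's scanning window of 20 bp. Tags of different subunits rose together across the isolated trios. Spearman's rho was 0.74 between the NF-YA and NF-YC libraries (0.76 in other trios). NF-YB gave 0.62 with NF-YA (0.67 in other trios) and 0.56 with NF-YC (0.59).

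The strongest isolated trio by the mean of its ranks in the 3 lists lay on chr19:12039831-12040091, 1.07 Mb after one region and 0.524 Mb before the next. It held 282 NF-YA tags (rank 12 of the list), 174 NF-YB tags (rank 106) and 101 NF-YC tags (rank 175). The second lay on chr12:32635231-32635271, with 198, 113 and 115 tags in the same order and gaps of 0.599 and 1.22 Mb. These were the 2 isolated sites among the NF-YA sites of 197 tags or more, which numbered 101.

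The third lay on chr14:45839151-45839271, with 179, 145 and 91 tags, after a gap of 7.89 Mb. The fourth, also on chr14:68333731-68334071, held 184, 125 and 75 tags. The fifth, on chr4:91043211-91043311, held 138 NF-YA tags, 188 NF-YB tags and 67 NF-YC tags with gaps of 2.26 and 3.68 Mb, so that NF-YB was the best ranked subunit there (rank 80). The sixth, on chr7:63305351-63305451, held 139, 115 and 69 tags between gaps of 4.04 and 3.18 Mb and was the strongest trio amid gaps of over 3 Mb.

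The other 4 of the 10 strongest trios lay on chr8:107115251-107115351 (134, 177 and 58 tags), chr13:4608431-4608511 (116, 130 and 74), chr2:27395571-27395691 (108, 138 and 63) and chr18:33373511-33373711 (118, 74 and 96). Scaled to kept tags, NF-YB was highest in the regions on chromosomes 8 and 2 and NF-YA in those on chromosomes 13 and 18. The region on chromosome 8 followed a gap of 8.70 Mb but had its next neighbour 0.698 Mb away.

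A trio dominated by NF-YB lay on chr1:39950111-39950191. It held 253 NF-YB tags, the most of any isolated site of that list (rank 19), with 71 NF-YA tags (rank 1019) and 26 NF-YC tags (rank 1770). Scaled to kept tags, NF-YB was 2.95 times NF-YA there, the highest ratio among the isolated trios, whose median was 0.667. Its NF-YB fold over input was 251, also the highest of the isolated NF-YB sites. That fold rests on the lowest possible input count, which may also stand for no input tag.

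Isolated pairs had fewer tags than isolated trios. In the 41 regions of NF-YA with NF-YB, the former had a median of 28 tags and the latter a median of 34, and in the 36 regions of NF-YA with NF-YC the medians were 30 NF-YA and 24 NF-YC tags. The strongest NF-YA and NF-YB pair, on chr1:177555811-177555871, held 86 and 93 tags. A pair on chr4:144861751-144861831 was uneven, with 92 NF-YB tags and 24 NF-YA tags, and a pair on chr11:64792411-64792511 held 87 NF-YA and 70 NF-YB tags.

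Of the NF-YA and NF-YC pairs, the strongest lay on chr9:85642991-85643031, with 82 NF-YA and 109 NF-YC tags. The pair on chr12:45310971-45311211 held 45 NF-YA and 85 NF-YC tags between gaps of 4.14 and 2.61 Mb. Its NF-YC fold of 103 was the highest of the isolated NF-YC sites, and it too rests on the lowest possible input count. The third, on chr6:28430211-28430311, held 77 and 67 tags. All 3 had tag counts far above the median NF-YC count for isolated sites, with no NF-YB site called. The histone-fold pairs without NF-YA were weak: 35 NF-YB and 18 NF-YC tags on chr2:77344611-77344691, and 16 and 14 tags on chr7:127265431-127265591.

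Lone sites lay near the calling limit. The 140 lone isolated NF-YA sites had a median of 20 tags (range 14 to 73), the 33 lone NF-YB sites 21 (15 to 66) and the 30 lone NF-YC sites 19.5 (14 to 56). Of the lone NF-YA sites, 74 (52.9%) had 20 tags or fewer, and so did 48.0% of the lone NF-YA sites elsewhere. Lone sites were thus about as weak among other regions, where the medians were 21, 21 and 20 tags.

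Some lone sites were well above the limit. The strongest lone NF-YA site, on chr8:83383231-83383271, had 73 tags, more than the median NF-YA count of the isolated trios. The next were on chr1:51535351-51535391 (65 tags) and chr4:9596351-9596411 (56 tags). Lone NF-YB was led by chr10:30562731-30562771 (66 tags), chr18:25323211-25323251 (63 tags) and chr7:89319611-89319671 (50 tags). Lone NF-YC was led by chr6:118483591-118483651 (56 tags) and by chr5:107760111-107760151 (45 tags) and chr5:35731151-35731211 (42 tags). A missing partner means that it was under the limit of its list, not that it was absent.

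The lower share of trios among isolated regions was smaller at a like tag count. Each list was divided into 4 classes of about equal size by tag count. In the weakest NF-YA class, 14 to 21 tags, 2 of 104 isolated sites lay in trios (1.92%, 0.234 to 6.77), against 6.04% of the other sites. In the second class, 22 to 34 tags, it was 13 of 76 (17.1%, 9.43 to 27.5) against 21.3%. In the third, 35 to 65 tags, it was 33 of 78 (42.3%, 31.2 to 54.0) against 42.3%, and in the strongest, 66 tags and more, 50 of 57 (87.7%, 76.3 to 94.9) against 81.4%. The trio share thus rose with tag count at isolated and other sites.

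Over all isolated NF-YA sites, 31.1% lay in trios (26.0 to 36.5), against 38.1% of the other NF-YA sites. Had the other sites the tag counts of the isolated ones, class by class, their share would be 32.3%, which takes the difference from -6.97 to -1.22 percentage points (-6.30 to 4.21 from the interval of the isolated share). For NF-YB the difference went from -6.73 to -3.21 points and for NF-YC from -6.23 to -1.81 points. Over the 3 lists, the isolated share was below the other share in 7 of the 12 classes, and the isolated interval included the other share in all 12. These intervals are wide, with between 28 and 104 isolated sites in a class, so differences of several points would not be seen.

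**Figure D4:**
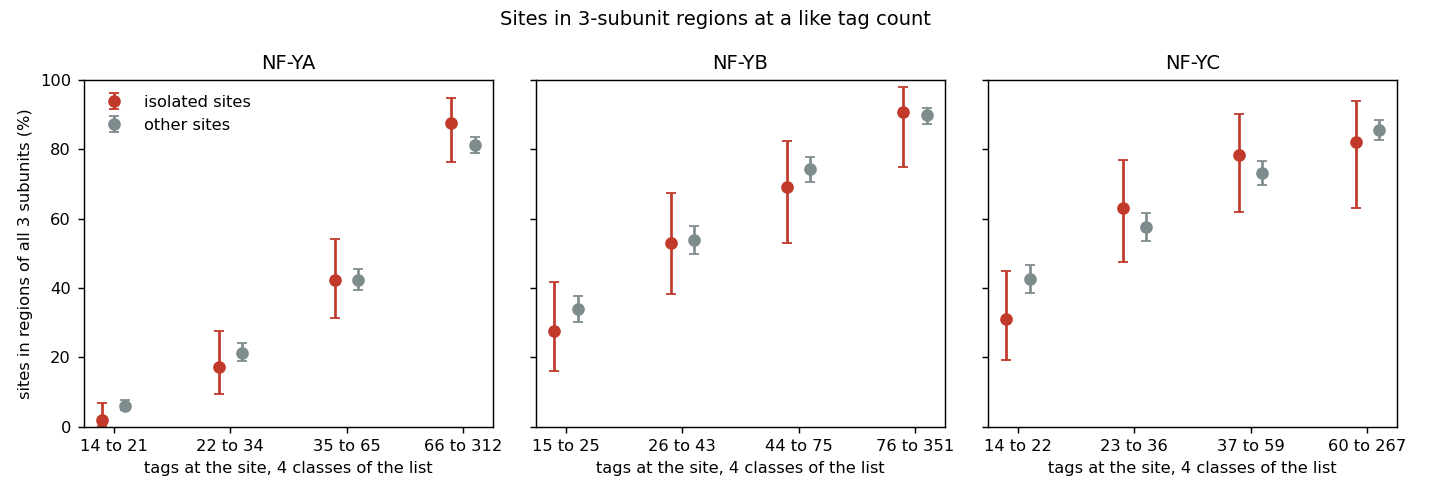
Share of sites that lie in regions of all 3 subunits (%), by class of tag count within the list, for isolated sites (red) and other sites of chromosomes 1 to 19 (grey), with exact 95% binomial intervals. In all 12 classes the red interval includes the grey value.

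The fold over input, the site's tags divided by scaled input tags, differed less than the tags. Isolated NF-YA sites had a median fold of 17.4 and the others 16.8. Both NF-YB medians were 16.9. The isolated NF-YC median was 15.0 and the other 16.3. Input counts recovered from the fold were lower at isolated sites. They had a mean of 2.60 and a median of 2 at 296 isolated NF-YA sites, against a mean of 3.12 and a median of 3 at the others. For NF-YB the means were 2.56 and 3.0, and for NF-YC 2.62 and 3.27.

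Isolated regions thus combined fewer precipitated tags with fewer input tags. An input count of 4 or more was recovered at 25.7% of isolated NF-YA sites and 34.2% of the others, at 24.2% and 32.4% of NF-YB sites and at 22.9% and 38.5% of NF-YC sites. The lowest value, 1, was recovered at 30.4% of isolated NF-YA sites (25.2 to 36) and 21.2% of the others. For NF-YB the shares were 27.3% (20.6 to 34.7) and 24.5%, and for NF-YC 26.1% (19.4 to 33.7) and 19.5%, with the other share inside the interval in both. A value of 1 may also stand for no input tag, and since a fold of at least 7 was required, weak sites could pass only with few input tags.

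At a like tag count the mean input was lower at isolated sites in 11 of the 12 classes, the exception being NF-YC at 14 to 22 tags (1.92 against 1.79). In the strongest class the means were 3.49 and 4.35 for NF-YA, 3.48 and 4.24 for NF-YB, and 3.54 and 4.52 for NF-YC. Median tags in that class still differed: 95 at isolated and 102 at other NF-YA sites, 116.5 and 112 for NF-YB, and 73 and 81.5 for NF-YC. Why the input was lower was not tested. The lowest value was recovered at 12 of 55 isolated NF-YA sites of that class (21.8%, 11.8 to 35.0) and 8.61% of the others. This share was higher at isolated sites in 8 of the 12 classes and lower in 4, such as NF-YC at 14 to 22 tags (34.0% against 40.1%). The isolated interval left out the other sites' share in 3 classes: NF-YA at 66 tags and more, NF-YA at 14 to 21 tags (53.6% against 38.9%) and NF-YC at 37 to 59 tags (24.2% against 10.5%). One input library serves all 3 lists and isolated trios enter each, so the lists are not independent here.

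Isolated sites were as narrow as the others. In both sets the median width of NF-YA sites was 60 bp. NF-YB sites had a median of 40 bp and NF-YC sites one of 60 bp. Sites wider than 200 bp were 16 of 315 isolated NF-YA sites (5.08%, others 4.75%), 3 isolated NF-YB sites (1.72%, others 1.89%) and 2 isolated NF-YC sites (1.20%, others 3.27%).

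Every autosome carried isolated regions, from 5 on chromosome 19 to 37 on chromosome 2. As a share of the chromosome's regions they were most frequent on chromosome 13 (29 of 203, 14.3%, 9.78 to 19.9), chromosome 3 (30 of 212, 14.2%, 9.76 to 19.6) and chromosome 1 (33 of 282, 11.7%, 8.19 to 16). They were least frequent on chromosome 19 (5 of 187, 2.67%, 0.874 to 6.13), chromosome 11 (14 of 461, 3.04%, 1.67 to 5.04) and chromosome 5 (15 of 391, 3.84%, 2.16 to 6.25). The intervals of the leading 3 overlapped one another, and so did those of the last 3. The share fell with the density of regions, which fixes much of it by the rule itself, with a rho of -0.81 over 19 chromosomes.

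Chromosome 13 carried 1.76 regions per Mb, close to chromosome 6 with 1.77, where 19 of 258 regions were isolated (7.36%, 4.49 to 11.3). Its share was thus larger at a like density, with intervals that overlap. Per 10 Mb, chromosome 13 carried 2.51 isolated regions, the most of any autosome, and chromosome 19 the fewest at 0.867. Isolated trios were most numerous on chromosome 1 (14 of 33 isolated regions), chromosome 3 (11 of 30) and chromosome 13 (8 of 29), against 98 of 380 on all autosomes. The order by share was another, with 7 of 14 on chromosome 8 and 3 of 28 on chromosome 10.

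**Figure D5:**
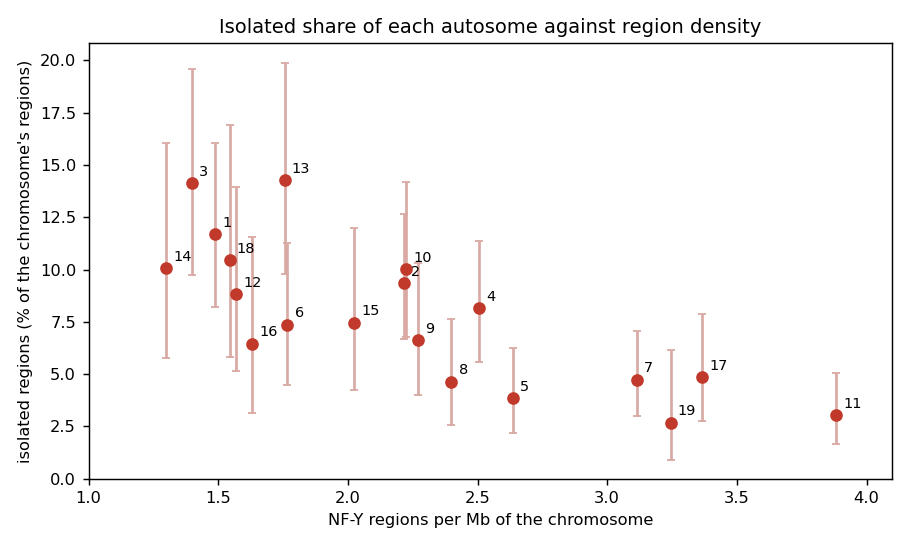
Isolated regions as a share of each autosome's NF-Y regions (%, vertical axis from 0, with exact 95% binomial intervals) against the density of NF-Y regions (per Mb). Labels are chromosome numbers. Chromosomes 3 and 13 are highest (14.2% and 14.3%) and chromosome 19 lowest (2.67%).

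Some isolated regions followed one another. The rule gives each neighbour of an isolated region a long gap on the side they share, so part of this is built in. Of the 380, 234 (61.6%, 56.5 to 66.5) had an isolated region as a direct neighbour, and 146 stood between regions that were not isolated. They formed 46 runs of 2, 17 of 3, 9 of 4, 7 of 5, 1 of 6 and 2 of 7 consecutive isolated regions. Members of a run share the trait of an isolated neighbour, so they are not independent. The interval for the 61.6% does not allow for this. The runs of 7 lay on chr3:8511191-25446731, a stretch of 16.9 Mb with 3 trios and 4 lone sites, and on chr4:84314171-94719091, 10.4 Mb with 3 trios and 3 lone sites. The run of 6, on chr9:85642991-90729071, held no trio and 4 lone sites.

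Of the 152 pairs of adjacent isolated regions, 12 were trios on both sides (7.89%, 4.15 to 13.4) and 54 were lone sites on both sides (35.5%, 27.9 to 43.7). Single isolated regions were trios in 25.8% and lone sites in 53.4% of cases, and whether like regions adjoin more often than these shares give was not tested. Regions inside longer runs enter more than 1 pair, so the pairs are not independent and the intervals do not allow for this. The 456 regions next to an isolated region that were not isolated themselves held trios in 28.7% of cases (24.6 to 33.1) and lone sites in 47.6% (42.9 to 52.3), between the isolated regions and the background. Both intervals include the background (32.4% and 44.0%), and the interval for trios also includes the 25.8% of the isolated regions.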

How the data were processed

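Chromatin immunoprecipitation libraries for NF-YA, NF-YB and NF-YC were compared with 1 input library. The submitters' processing notes name Bowtie and the mm9 build, without a version. The authors called sites with SISSRs 1.4 per library (window 20 bp, e-value 10, p-value threshold 0.001, 1 tag kept per position, at least 2 directional tags on each side), per the file headers. The deposited tag counts are whole tags per site, not normalized. The deposited fold is a ratio to input, and the deposited p-value was not used.

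The members, alternatives and rules for named regions were chosen with earlier results of these data known. Named were the 10 regions with the largest smaller gap, the 10 trios with the lowest mean rank, the 3 regions of most tags per combination and 3 on each side of the limit.

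Site centres were taken midway between start and end, and gaps ran between facing outermost centres. Percentiles are within a list. The input count was the whole number, at least 1, that gives the deposited fold within 0.0051 once scaled by kept tags over the 13767116 input tags. It was recovered for 92.5% to 96.8% of sites. The functions were tested on simulated lists. Python 3.11.15, numpy 2.4.6, pandas 2.3.3, scipy 1.17.1 and matplotlib 3.10.9 were used.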

Additional observations from a re-analysis of the deposited data

How the results depend on the processing

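Under 14 alternative settings, 75 of 91 alternative values stayed within the interval of the reported value (counts within 1.5 times). Many settings share most of their regions, and gaps between region midpoints gave 380 regions and unchanged values. The tally is therefore not one of independent checks. In every setting the share of trios was below, and the shares of lone sites and of NF-YA alone above, the share over all autosomal regions (11, 14 and 13 settings with a value). The setting that adds the X was also set against this autosomal share, which holds no X region. The interval included that share for trios in 4 settings (gaps over 1 Mb, the upper part of each list by tags or by fold, and at least 20 tags) and for NF-YA alone in 4 (upper part by fold, at least 20 tags, first and last regions added, NF-YC list left out), and for lone sites in none of the 14. Isolated regions numbered 816 with gaps over 250 kb, 161 with gaps over 1 Mb and 847 when only regions of 2 or more subunits counted as neighbours. With gaps over 1 Mb, NF-YA alone made up 42.9%. Requiring at least 20 tags gave 30.9% trios (35.4% of all regions), 29.5% NF-YA alone (27.0% of all), 45.6% lone sites (39.3%) and a median NF-YA percentile of 48.9. The upper part of each list by tags gave 44.7% lone sites and a median NF-YC percentile of 46.4, and by fold 20.7% trios and 59.2% lone sites. Percentiles were then taken within the shortened lists. Without the NF-YB list, NF-YA alone made up 52.3% (46.1% of all regions) and lone sites 62.0% (53.0%), and without the NF-YC list 49.5% (45.3%) and 59.5% (54.1%), as fewer lists leave fewer possible partners. The remaining difference in trio share at a like NF-YA tag count, -1.22 points, was -0.72 with 10 classes of tag count in place of 4, -0.44 with gaps over 250 kb and 0.149 with gaps over 1 Mb; these 3 settings were chosen after seeing the data. The CCAAT share was not run, as no mm9 genome was used here. No paired analysis was possible because no subunit had a second library, so no replicate could be left out either. Sites under 14 or 15 tags are not in the lists, so both isolation and lone sites depend on depth.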

Other observations

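The X chromosome, which the rule leaves out, had 28 of 128 regions with gaps over 500 kb on both sides (21.9%, exact 95% interval 15.1 to 30.04), against 7.28% on the autosomes. Of these 28, 26 held an NF-YA site (median 23.5 tags, highest 82), 5 an NF-YB site and 9 an NF-YC site. All 3 subunits were held by 1 (3.57%, 0.0904 to 18.3), and 17 were lone sites (60.7%, 40.6 to 78.5). The same shares over all 128 X regions were not taken. These counts therefore do not show whether the 28 differ from the X as a whole. The density of regions, which by the rule fixes much of the isolated share of an autosome, was not taken for the X. The cell line's X copy number was not examined here.

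Of the 38 regions that stand first or last on an autosome, 10 had a gap over 500 kb on the side where they have a neighbour, and 3 of these 10 held all 3 subunits.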
